A study of Mus musculus with 6 samples.

Results

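Chemokine receptors are cell surface receptors coupled to inhibitory G proteins. They read gradients of small secreted proteins, the chemokines, and steer the migration of leukocytes between blood, lymphoid organs and inflamed tissue. A CD4+ T cell carries several of them at once, and the combination changes as it is activated and polarised. Ccr7, Cxcr4 and Cxcr5 guide cells within lymphoid organs. Ccr2, Ccr4, Ccr6, Ccr8, Cxcr3 and Cxcr6 are receptors of effector and memory cells. Cxcr3 and Cxcr6 are commonly linked to Th1 cells, Ccr4 and Ccr8 to Th2 and regulatory T cells, and Ccr6 to Th17 cells.

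The data described are the RNA sequencing read counts of 9 chemokine receptor genes, Ccr2, Ccr4, Ccr6, Ccr7, Ccr8, Cxcr3, Cxcr4, Cxcr5 and Cxcr6, taken by gene symbol from 54532 listed genes. All 9 passed the filter on low counts, as did 15938 genes in total. CD4+ T cells were isolated with magnetic beads by negative selection from spleens of male C57BL/6 mice aged 6 to 8 weeks, and all 6 cultures were held for 3 days under Th1 conditions with plate-bound anti-CD3ε, anti-CD28, IL-2, IL-12p70 and an antibody that blocks IL-4. The 3 cultures of the ALX-5407 group additionally received 500 nM ALX-5407, which blocks glycine uptake by the transporter GlyT1, and the 3 control cultures received vehicle (0.1% DMSO). The labels give an exposure of 72 h and the study's methods 24 h. The labels call the 3 libraries of each group biological replicates and do not say which animals they came from, so p-values measure the spread between these cultures. Each library held 30801753 to 36727788 counts, and the groups were separated by the first principal component. A marker list of 11 CD4 T cell genes was detected throughout, with a summed level of 3500 to 3628 CPM in control and 3453 to 3497 CPM in ALX-5407 libraries. The sum holds moves in opposite directions. At an adjusted p under 0.05 (edgeR), 5 of the 11 were lower with ALX-5407, against 23.2% of all genes tested. Another 2 were higher, against 24.5%, and Cd4 itself had a log2 fold change of -0.46. CPM is the read count after scaling to a common library size.

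A gene was called changed at an adjusted p under 0.05 in edgeR's quasi-likelihood test (Benjamini-Hochberg adjustment over all genes tested) with an absolute log2 fold change over 1, the thresholds of the study's methods. In ALX-5407-treated Th1 cells, 4 of the 9 receptors were called lower, Ccr6, Ccr8, Ccr2 and Ccr4, against 6.68% of all genes tested. None was called higher, against 3.36% of all genes, and without the limit on fold change the count of higher receptors was also 0, against 24.5%. DESeq2 and limma-voom also called 0 higher, and 0 were higher at an unadjusted p under 0.05 in edgeR. Without that limit 6 receptors were lower, adding Ccr7 and Cxcr4, against 23.2% of all genes. Every ALX-5407 library lay below every control library for these 6 receptors, a pattern held by 27.1% of all genes. The reverse order was found for 2 receptors, Cxcr3 and Cxcr5, and for 28.4% of all genes, and the groups overlapped for Cxcr6 alone. The median log2 fold change of the 9 receptors was -0.59, and that of all genes tested was 0.0053. In bulk cultures, fewer cells that express a receptor and less receptor RNA per cell cannot be told apart.

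**Figure D1:**
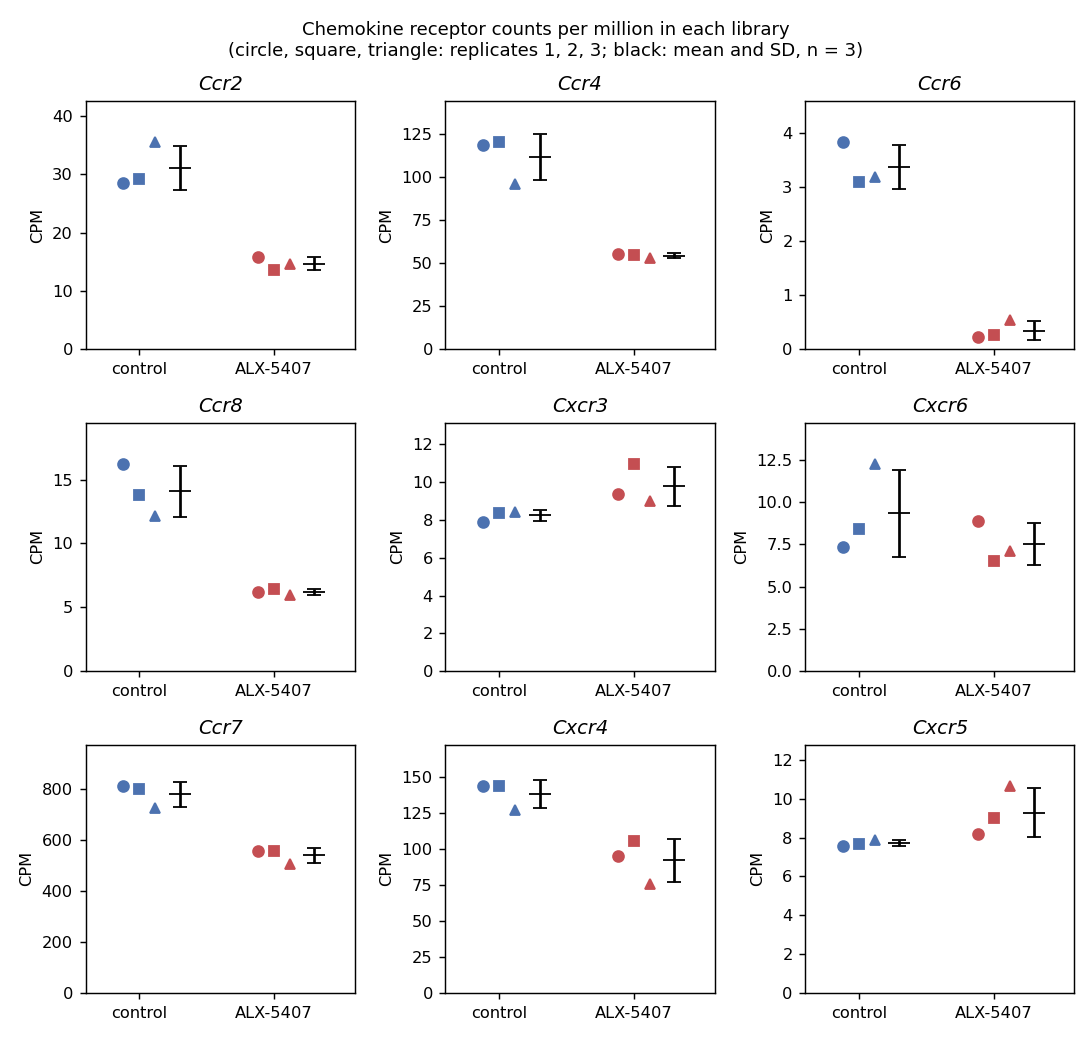
CPM (vertical axis, starting at 0, own scale for each gene) of the 9 chemokine receptors in 3 control and 3 ALX-5407 libraries, each point being a library and the black bar the mean with its SD (n = 3). The ALX-5407 points lie below all control points for Ccr2, Ccr4, Ccr6, Ccr8, Ccr7 and Cxcr4 and above them for Cxcr3 and Cxcr5. For Cxcr6 the range of the ALX-5407 points overlaps that of the control points.

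Ccr6, the receptor for Ccl20 and a receptor of Th17 cells and other cells at mucosal surfaces, fell most of the 9. Its reads numbered 125, 97 and 98 in the control libraries and 8, 10 and 19 in the ALX-5407 libraries. The lowest control count was thus well above the highest ALX-5407 count. The level fell from 3.37 ± 0.407 to 0.345 ± 0.171 CPM (SD, n = 3 each), which is 9.71-fold lower. The log2 fold change of -3.28 had a 95% interval from -3.98 to -2.58 (standard error 0.33, adjusted p = 6.92e-07, edgeR), and 39 of the 15938 genes tested had a lower one. Ccr6 was also the least abundant of the 9, so that its ALX-5407 values rest on few reads and the interval is the widest among the receptors. Leaving out each library in turn gave -3.74 to -3.05, with the lowest value when the third ALX-5407 library, which held 19 of the reads, was removed.

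Ccr8, a receptor for Ccl1 and a marker of Th2 and tissue regulatory T cells, was counted 528, 433 and 375 times in control and 218, 239 and 208 times in ALX-5407 libraries. No ALX-5407 library reached the lowest control library. The level fell from 14.1 ± 2.03 to 6.17 ± 0.237 CPM (SD, n = 3 each), with a log2 fold change of -1.19 (standard error 0.13, 95% interval -1.47 to -0.90, adjusted p = 2.49e-06, edgeR). The control libraries spread more than the treated ones, as they also did for Ccr2 and Ccr4.

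Ccr4, which binds Ccl17 and Ccl22 and serves entry of memory cells into skin and sites of type 2 inflammation, had 3868, 3776 and 2957 reads in control and 1956, 2048 and 1860 reads in ALX-5407 libraries. The treated libraries were close to each other and all lay below the third control, which was the lowest of its group. The level fell from 111.8 ± 13.6 to 54.4 ± 1.23 CPM (SD, n = 3 each), a 2.05-fold difference. The log2 fold change was -1.04 with a 95% interval from -1.22 to -0.85 (standard error 0.087, adjusted p = 1.04e-07, edgeR).

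Ccr2, the receptor for Ccl2, is best known on inflammatory monocytes and is also carried by effector and memory T cells. It had 932, 915 and 1094 reads in control and 559, 509 and 512 reads in ALX-5407 libraries, and the groups did not overlap. The level fell from 31.1 ± 3.85 to 14.7 ± 1.1 CPM (SD, n = 3 each), with a log2 fold change of -1.08 (standard error 0.11, 95% interval -1.31 to -0.86, adjusted p = 5.89e-07, edgeR). The 95% intervals of Ccr2, Ccr4 and Ccr8 all crossed -1, so the size of each fall is not separated from the fold limit itself. Ccr2 fell short of that limit, at -0.99, without the third control library, and so did Ccr4, at -0.99 without the second control library and at -0.98 with library totals in place of scaled library sizes, while adjusted p stayed under 0.05 in each (edgeR).

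Because Ccr2 is a monocyte receptor, the markers of other cell types were read beside it. The summed level of 13 monocyte, macrophage and neutrophil markers was 100.7 to 115 CPM in control and 40.7 to 48.6 CPM in ALX-5407 libraries. Only 3 of the 13 had enough reads to be tested, Cd68, Ly6g and Ly6c2. Cd68 and Ly6g were called lower, with log2 fold changes of -1.75 and -1.42 (edgeR), against 6.68% of all genes tested. Among the markers not tested, S100a8, S100a9 and Csf3r had 0 reads in all libraries, and Lyz2 had at most 8 in any. The dendritic cell list went from 81.9 to 90.4 CPM in control to 61.7 to 71.6 CPM in ALX-5407 libraries, with Siglech and Cd209a at 0 in all libraries, and the NK cell list from 5.3 to 5.53 CPM to 1.9 to 2.08 CPM, with Ncr1 at 4 reads or fewer. Only 3 of the 7 dendritic cell genes were tested, with 0 called. These 3 lay below control in every ALX-5407 library, a pattern held by 27.1% of all genes tested. For the NK cell list 2 of 5 were tested, and these 2 were called lower (edgeR), against 6.68% of all genes tested. The CD8 T cell markers went from 9.25 to 9.59 CPM to 6.71 to 8.87 CPM. The B cell list went from 63.6 to 70.1 CPM to 78.5 to 81.3 CPM, and the platelet and erythroid list from 4.18 to 5.78 CPM to 8.07 to 11.1 CPM. All 8 B cell genes were tested. Of these, 1, Ms4a1, was called higher (log2 fold change 1.27, edgeR), against 3.36% of all genes tested. Without the fold limit 4 of the 8 were higher, against 24.5% of all genes tested, and 0 lower. For the platelet and erythroid list 4 of 6 were tested and 1 was called higher, against 3.36% of all genes. The part of these cell types in the receptor differences was not tested.

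Cxcr3, the receptor for the interferon-induced chemokines Cxcl9, Cxcl10 and Cxcl11 and a target of the Th1 factor T-bet, had 257, 263 and 260 reads in control and 331, 409 and 316 reads in ALX-5407 libraries. Scaled for depth, these were 7.89, 8.39 and 8.45 CPM against 9.37, 10.96 and 9.01 CPM, and each treated library was above each control. The difference did not pass the test, with a log2 fold change of 0.25 (standard error 0.13, 95% interval -0.03 to 0.52, adjusted p = 0.131, edgeR). A fall of the size seen in Ccr2, Ccr4 or Ccr8 lies outside this interval.

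Cxcr6, the receptor for Cxcl16 and a receptor of tissue-resident effector T cells, had 240, 264 and 377 reads in control and 314, 244 and 250 reads in ALX-5407 libraries. The groups overlapped, and the third control library stood above the rest. Mean levels were 9.35 ± 2.57 and 7.52 ± 1.22 CPM (SD, n = 3 each), with a log2 fold change of -0.31 (95% interval -0.69 to 0.07, adjusted p = 0.168, edgeR). Without the third control library the value was -0.09, so most of the difference between the means lay in that library.

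Among the receptors of lymphoid organs, Ccr7 was by far the most abundant. Ccr7 binds Ccl19 and Ccl21 and brings naive and central memory cells into the T cell zone. It had 26390, 25034 and 22233 reads in control and 19627, 20757 and 17728 reads in ALX-5407 libraries. Its level in control exceeded that of 99% of all genes tested. It fell from 777.1 ± 47.7 to 539.3 ± 29.1 CPM (SD, n = 3 each), 1.44-fold, with a log2 fold change of -0.53 (standard error 0.074, 95% interval -0.68 to -0.37, adjusted p = 2.31e-05, edgeR). The interval excludes the fold limit, so the fall was smaller than those required for a call.

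Cxcr4, the receptor for Cxcl12, had 4684, 4515 and 3914 reads in control and 3355, 3938 and 2667 reads in ALX-5407 libraries. After scaling for depth these were 143.9, 144 and 127.2 CPM against 95, 105.6 and 76.1 CPM, without overlap. The log2 fold change was -0.59 with a 95% interval from -0.80 to -0.37 (standard error 0.1, adjusted p = 0.000149, edgeR). As for Ccr7, the interval stops short of -1.

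Cxcr5, the receptor for Cxcl13 and the homing receptor of follicular helper T cells, had 247, 240 and 243 reads in control and 289, 337 and 374 reads in ALX-5407 libraries. Each treated library was above each control, and the control libraries were nearly equal. Levels were 7.71 ± 0.163 and 9.29 ± 1.26 CPM (SD, n = 3 each), with a log2 fold change of 0.27 (95% interval -0.02 to 0.56, adjusted p = 0.119, edgeR), which did not pass the test. Cxcr5 shares 110 of its exon bases (3.3%) with Bcl9l on the opposite strand, whose log2 fold change was 0.47 (adjusted p = 0.000676, edgeR), and whether the counting used strand was not given in the sources used here. Cxcr6 lies inside the span of Fyco1 on the opposite strand but shares 0 exon bases with it, and the other 7 receptors overlap no annotated gene.

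**Figure D2:**
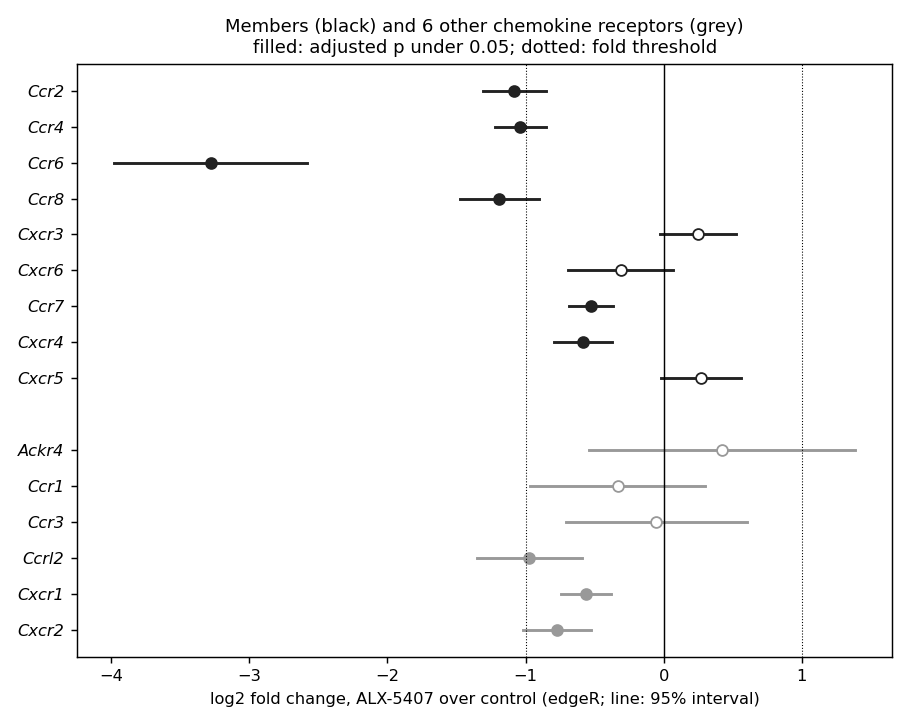
Log2 fold change of ALX-5407 over control (horizontal axis) for the 9 receptors (black) and 6 other chemokine receptors (grey), with 95% intervals as lines and filled points for adjusted p under 0.05 (edgeR). Ccr6 lies at -3.28, Ccr8, Ccr2 and Ccr4 lie just beyond the dotted fold limit at -1, and Cxcr3 and Cxcr5 lie above 0 with intervals that include it.

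The levels of different receptors were compared as RPKM, that is, CPM per kilobase of the deposited gene length. In control Th1 cells the order was Ccr7 (392.9 ± 24.1), Cxcr4 (76.5 ± 5.35), Ccr4 (36.1 ± 4.4), Ccr8 (12 ± 1.73), Cxcr6 (4.84 ± 1.33), Cxcr3 (4.76 ± 0.176), Ccr2 (4.6 ± 0.569), Cxcr5 (2.31 ± 0.0489) and Ccr6 (1.45 ± 0.175 RPKM; SD, n = 3 each). Cxcr6, Cxcr3 and Ccr2 overlapped with their neighbours in this order, and the other neighbours did not. With ALX-5407 the first 3 places and the last were held by the receptors that held them in control. In between, Cxcr3 (5.65 ± 0.6 RPKM) overlapped with Ccr8 (5.25 ± 0.202 RPKM), while Ccr2 (2.17 ± 0.162 RPKM) came after Cxcr5 (2.79 ± 0.379 RPKM). These places depend on the gene length used. Ccr2 has 6760 exon bases for a coding sequence of 1119 bases, and per kilobase of coding sequence it ranked 4 in both groups.

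**Figure D3:**
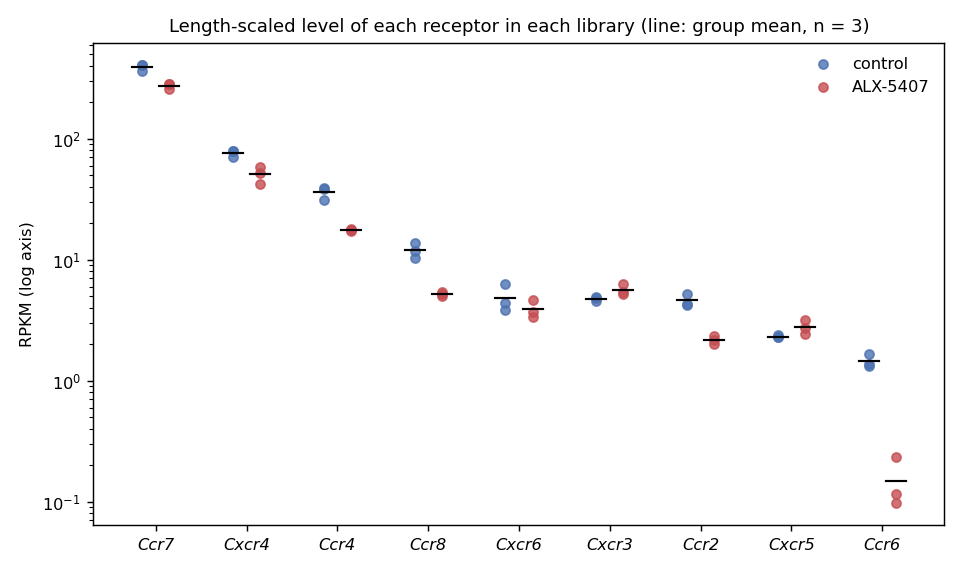
Length-scaled level (RPKM, log axis) of each receptor in each library, ordered by the control mean, with a horizontal line at the mean of each group (n = 3). Ccr7 at 392.9 and 272.6 RPKM stands far above the rest, and Ccr6 shows the widest gap between groups, from 1.45 to 0.149 RPKM.

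As a sum over the 9 receptors, the length-scaled level was 558.1, 551.2 and 497.2 RPKM in control and 371.6, 377.4 and 334.4 RPKM in ALX-5407 libraries, without overlap. Ccr7 made up 73.4% ± 0.116 of this sum in control and 75.5% ± 0.962 with ALX-5407 (SD, n = 3 each), so the sum mostly follows Ccr7. The share of Ccr4 was 6.73% ± 0.429 in control and 4.88% ± 0.221 with ALX-5407, that of Ccr8 2.23% ± 0.211 and 1.46% ± 0.0491, and that of Ccr6 0.272% ± 0.0276 and 0.0422% ± 0.024. The share of Cxcr3 was 0.893% ± 0.0831 and 1.56% ± 0.111, and that of Cxcr5 0.434% ± 0.0373 and 0.779% ± 0.157. These shares are a description and were not tested.

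Ratios of receptors within a library do not depend on scaling between libraries, and 5 of them were compared by a two-sided exact permutation test, which with 3 against 3 libraries cannot give a p under 0.1. The log2 ratio of Cxcr3 to Ccr4 reads was -3.91, -3.84 and -3.51 in control and -2.56, -2.32 and -2.56 in ALX-5407 libraries, a 2.42-fold higher ratio (exact p = 0.1, adjusted p = 0.125 over the 5 ratios). The ratio of Cxcr3 to Ccr6 was 11.9-fold higher, that of Cxcr3 to Ccr7 1.7-fold higher and that of Cxcr6 to Ccr8 1.85-fold higher, each without overlap and each at the same exact p of 0.1 and adjusted p of 0.125. In CPM, Cxcr3 lay above control, and Ccr4, Ccr6 and Ccr7 below it, in every ALX-5407 library. The lack of overlap and the exact p of the ratios with Cxcr3 were thus fixed beforehand, and these ratios restate the single-gene values. The ratio of Ccr7 to Cxcr4 overlapped between groups, with log2 means of 2.49 ± 0.0177 and 2.56 ± 0.168 (SD, n = 3 each, exact permutation p = 0.7). Its difference of 0.07 became -0.02 without the third ALX-5407 library.

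In the GENCODE M21 annotation of GRCm38, 5 of the receptors have the whole coding sequence in 1 exon. Ccr2 lies on chromosome 9 from 124101950 to 124113557 (+ strand), Ccr4 on chromosome 9 from 114490316 to 114504916 (- strand), Ccr8 on chromosome 9 from 120092114 to 120094906 (+ strand), Cxcr6 on chromosome 9 from 123806475 to 123811760 (+ strand) and Cxcr5 on chromosome 9 from 44511787 to 44561877 (- strand). Ccr6 lies on chromosome 17 from 8236043 to 8257141 (+ strand), Ccr7 on chromosome 11 from 99144196 to 99155077 (- strand), Cxcr4 on chromosome 1 from 128588199 to 128592293 (- strand) and Cxcr3 on the X chromosome from 101731535 to 101734269 (- strand). Of 24 chemokine receptor genes listed, 15 are on chromosome 9, among them 5 of the 9 receptors described here. Of these 5, Ccr2, Ccr4 and Ccr8 were called lower, against 6.68% of all genes tested, and Cxcr5 and Cxcr6 did not pass the test. The further receptors Ackr4, Ccrl2, Ccr1 and Ccr3 on chromosome 9 were tested and not called.

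How reads that map to more than 1 place were counted was not given in the sources used here, and the counts of Ccr2, which belongs to a set of closely related receptor genes, are uncertain to the extent that reads were shared with them. For the other 8 receptors the closest relative shared 64.7% to 67.1% of aligned coding bases, with no identical run above 12 bases.

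The sequences upstream of the receptors called lower are shown next, so that a reader can see whether their start sites share short motifs. They are the 250 bases before a RefSeq transcription start (GRCm38.p6), read 5′ to 3′ on the strand of the gene, with motif matches in capitals. Ccr6 has 2 start sites, and Ccr2 is left out because most of its window lies in exons of other transcripts of the gene. Of the 9 receptors, 7 matched a RefSeq window. The windows are chr9:114496545-114496794 (- strand) for Ccr4, chr17:8235793-8236042 and chr17:8242276-8242525 (+ strand) for Ccr6, and chr9:120091883-120092132 (+ strand) for Ccr8.
Ccr4: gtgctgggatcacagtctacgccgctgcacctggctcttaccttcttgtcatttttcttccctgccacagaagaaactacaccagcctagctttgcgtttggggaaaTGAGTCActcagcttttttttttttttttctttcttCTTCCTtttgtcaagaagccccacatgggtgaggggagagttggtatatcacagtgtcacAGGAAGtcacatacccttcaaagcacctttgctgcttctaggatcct
Ccr6 first start: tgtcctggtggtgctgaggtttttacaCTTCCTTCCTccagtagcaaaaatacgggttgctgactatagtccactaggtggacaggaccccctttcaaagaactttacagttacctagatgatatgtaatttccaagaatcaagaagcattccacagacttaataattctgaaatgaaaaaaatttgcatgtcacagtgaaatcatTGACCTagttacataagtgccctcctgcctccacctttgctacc
Ccr6 second start: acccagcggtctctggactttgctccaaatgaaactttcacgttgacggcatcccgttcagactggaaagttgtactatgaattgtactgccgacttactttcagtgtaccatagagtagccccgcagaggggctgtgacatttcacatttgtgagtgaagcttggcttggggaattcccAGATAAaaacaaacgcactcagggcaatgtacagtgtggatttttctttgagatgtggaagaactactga
Ccr8: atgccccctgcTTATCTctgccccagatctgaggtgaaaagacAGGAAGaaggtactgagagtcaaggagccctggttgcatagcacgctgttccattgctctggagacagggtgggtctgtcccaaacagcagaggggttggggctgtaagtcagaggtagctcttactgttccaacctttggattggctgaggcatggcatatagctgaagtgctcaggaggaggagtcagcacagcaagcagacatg
In the window of Ccr4 an AP-1 match begins 143 bases before the start and ETS matches begin at 107 and 47 bases. The first Ccr6 window holds overlapping ETS matches at 223 and 219 bases and a ROR half-site at 44 bases, and the second holds a GATA match at 70 bases. The Ccr8 window holds a GATA match at 239 bases and an ETS match at 207 bases.

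No motif was present in all of these windows. Motifs of 7 factor families were searched on both strands, and each was also counted in 32851 RefSeq windows of the same length. The AP-1 motif was spelled TGANTCA, and 6.75% of all windows held it. For the GATA factors the letters were AGATAA, found in 9.99% of all windows. The half-site of the ROR receptors was taken as AGGTCA, which occurred in 14% of all windows. The half-site of T-box factors was taken as AGGTGT, and 11.8% of all windows contained it. RUNX proteins were represented by TGTGGT, with matches in 14% of all windows. The ATF4 element known as CARE was written TGATGNAAT and was present in 0.816% of all windows. For ETS proteins AGGAAG was used, which was the most frequent at 29.5% of all windows. The T-box and ATF4 letters were in none of the receptor windows, which says only that these letters are not in the bases searched. The window of Cxcr4 held none of the 7 motifs, was the richest in GC at 61.2% and had 19 CpG, against a median of 52.4% GC and 6 CpG over all windows. The 4 windows shown had 41.2% to 53.6% GC and 1 to 7 CpG.

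The genes whose profile over the 6 libraries was most like that of each receptor called lower were found among 12116 genes with a mean of at least 50 counts, by the root mean square difference of log2 CPM centred on each gene's mean. For Ccr4 they were R3hdm1 (difference 0.0248) and Tmem42 (0.0476), and for Ccr2 Rapgef4 (0.0515) and Eif4a2 (0.0532). For Ccr8 they were Itga3 (0.0528) and Serpinf1 (0.0603). No gene was as close to Ccr6, for which the nearest were 2610528A11Rik (0.216) and Chl1 (0.333), with log2 fold changes of -3.17 and -3.60. The 6 points of each profile fall into 2 groups, so likeness here mostly reflects an equal difference between the groups.

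Of 15 further chemokine receptors, 7 had enough reads to be tested and 0 were called by edgeR or DESeq2, with a median log2 fold change of -0.33. Without the fold limit 3 were lower at an adjusted p under 0.05, Cxcr1, Cxcr2 and Ccrl2, against 23.2% of all genes tested. An unadjusted p under 0.05 was found for 4 of the 7. Cxcr2, a receptor for neutrophil-attracting chemokines, had 739, 879 and 714 reads in control and 539, 463 and 546 reads in ALX-5407 libraries, with a log2 fold change of -0.77 (adjusted p = 4.62e-05, edgeR). Its neighbour on chromosome 1, Cxcr1, fell by 0.56 on the log2 scale (adjusted p = 5.16e-05, edgeR), from 38.3 ± 2.2 to 25.9 ± 1.29 CPM (SD, n = 3 each). Ccrl2, an atypical receptor that presents chemerin, had 297, 268 and 284 reads against 155, 221 and 118, and its log2 fold change of -0.97 (adjusted p = 0.000298, edgeR) was the one nearest to the limit from inside. The receptors Ccr1, Ccr3 and Ackr4 did not pass the test, with log2 fold changes of -0.33, -0.05 and 0.42. Ackr1 had 0 reads in all libraries, and the rest had too few to test.

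Of 3 other receptors that guide lymphocyte migration, S1pr1, the sphingosine 1-phosphate receptor that lets T cells leave lymphoid organs, was called lower. It had 7372, 6685 and 6314 reads in control and 3379, 3870 and 3436 reads in ALX-5407 libraries, with a log2 fold change of -1.12 (adjusted p = 6.75e-09, edgeR), so its fall was of the size seen in Ccr2, Ccr4 and Ccr8. Gpr183, an oxysterol receptor that positions activated cells in lymphoid follicles, fell by 0.43 on the log2 scale (adjusted p = 0.00102, edgeR).

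Of 16 genes for ligands of the 9 receptors, 4 had enough reads to be tested and 7 had 0 reads in all libraries, among them Ccl19 and Cxcl12, ligands of Ccr7 and Cxcr4. Of the 4 tested, 1 was called lower and 1 higher, against 6.68% and 3.36% of all genes tested. Ccl22, a ligand of Ccr4, had 69, 68 and 62 reads in control and 28, 14 and 27 reads in ALX-5407 libraries, with a log2 fold change of -1.70 (adjusted p = 0.00044, edgeR). Ccl20, the ligand of Ccr6, had 10, 16 and 6 reads in control and 27, 38 and 56 reads in ALX-5407 libraries, with a log2 fold change of 1.73 (adjusted p = 0.00526, edgeR). Ccl20 thus rose where its receptor fell, on low counts in both cases. Cxcl10, a ligand of Cxcr3, and Cxcl16, the ligand of Cxcr6, did not pass the test, with log2 fold changes of 0.21 and -0.80.

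Receptor signals are ended by G protein-coupled receptor kinases and arrestins, which desensitise the receptor, and by RGS proteins, which speed GTP hydrolysis by the G protein. Of 20 such genes listed, 16 were tested. Of these, 3 were called lower and 0 higher, against 6.68% and 3.36% of all genes tested. Rgs2 had 2724, 3150 and 3138 reads in control and 918, 1130 and 1139 reads in ALX-5407 libraries (log2 fold change -1.69, adjusted p = 2.26e-09, edgeR). Rgs9 and Rgs11 had log2 fold changes of -1.08 and -1.04 (adjusted p = 3.19e-06 and 1.1e-07, edgeR). The median of the 16 was 0.09. Without the fold limit 5 were lower and 3 higher, against 23.2% and 24.5% of all genes tested.

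Of 41 genes for G protein subunits, PI3K-gamma, Rac and other steps downstream of the receptors, 39 were tested. Gng7, a G protein gamma subunit, was called higher, from 17, 21 and 16 reads to 40, 60 and 59 reads (log2 fold change 1.36, adjusted p = 0.00395, edgeR). Pik3r6, a regulatory subunit of PI3K-gamma, was called lower, from 66, 79 and 70 reads to 37, 47 and 33 reads (log2 fold change -1.07, adjusted p = 0.00345, edgeR). The other 37 stayed inside the fold limit, and over all genes tested 6.68% were called lower and 3.36% higher. Without that limit 8 were lower and 15 higher, against 23.2% and 24.5% of all genes tested, and the median was 0.10.

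All 15 transcription factors with a known tie to these receptors were tested, and 3 were called higher, against 3.36% of all genes tested. Prdm1, which encodes the repressor Blimp-1, had 605, 630 and 563 reads in control and 3262, 3585 and 2831 reads in ALX-5407 libraries, with a log2 fold change of 2.24 (adjusted p = 4.47e-11, edgeR). Klf2, an activator of S1pr1 in quiescent T cells, rose by 1.39 on the log2 scale (adjusted p = 5.51e-06, edgeR), in libraries where S1pr1 itself was lower. Eomes, a T-box factor of effector cells, rose by 1.05 (adjusted p = 0.000485, edgeR). Tbx21, which encodes T-bet, is given outside the rule for named genes, chosen after its values were seen, and rose by 0.34 (adjusted p = 0.000941, edgeR). Without the fold limit 6 of the 15 factors were lower and 7 higher, against 23.2% and 24.5% of all genes tested.

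**Figure D4:**
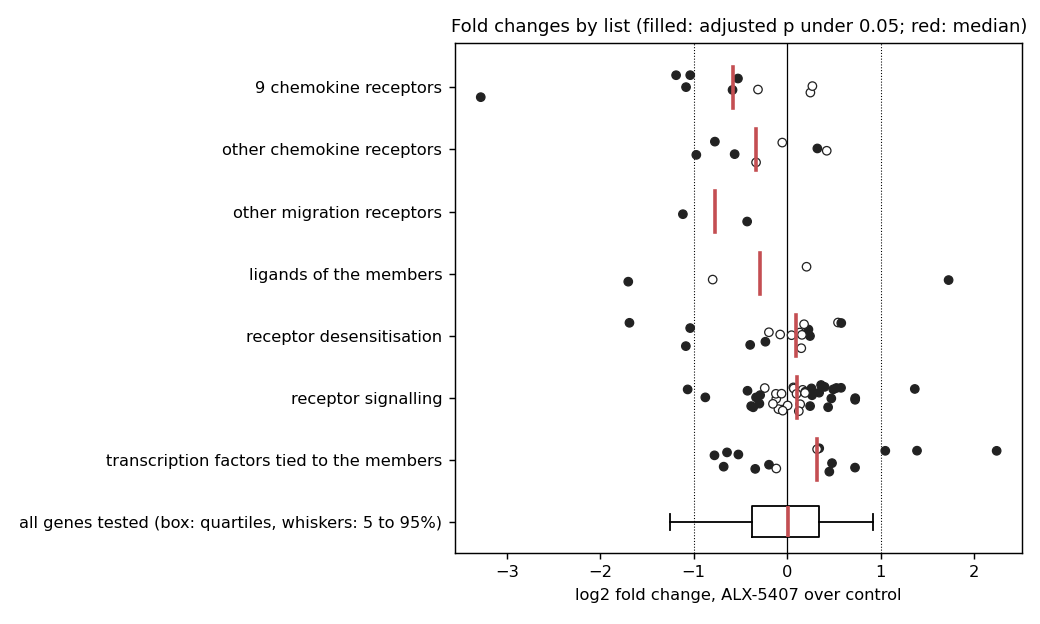
Log2 fold change of ALX-5407 over control (horizontal axis) for each tested gene of each list, filled where adjusted p was under 0.05 (edgeR), with the median of the list in red and, in the last row, a box of the quartiles of all genes tested with whiskers from 5% to 95%. The 9 chemokine receptors have a median of -0.59, the transcription factors one of 0.32, and all genes tested one of 0.0053.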

How the data were processed

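RNA of 6 mouse CD4+ T cell cultures was sequenced, 3 per group, with groups and replicate numbers taken from the labels. The labels describe selection of mRNA with poly-T beads and the study's methods a depletion of ribosomal RNA. For each library the authors deposited unnormalized read counts per gene, beside gene coordinates and lengths. The submitters' processing notes name fastp, HISAT2 2.0.5, featureCounts 1.5.0-p3 and mm10. The annotation release, the use of strand and the treatment of reads with several positions, which matters for near-identical genes, are not given in the sources used here.

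The counts were tested with edgeR 4.0.16 in R 4.3.3 (filterByExpr at its defaults, a minimum count of 10 and a minimum total of 15, TMM scaling factors from 0.965 to 1.03, quasi-likelihood F test, Benjamini-Hochberg adjustment over 15938 genes). The standard error of a log2 fold change came from its F statistic. Replicates differed by more than sampling noise, so each library counted as 1. The fit was tested on simulated counts. Gene models came from GENCODE M21 on GRCm38, promoter windows from RefSeq (GRCm38.p6) and alignments from Biopython 1.88. Exact permutation tests used SciPy 1.17.1 and figures matplotlib 3.10.9. Ratios had 0.5 added to each count.

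The 9 receptors and all gene lists were chosen with earlier results of these data known. All 9 receptors and other measured chemokine receptors are named, except 1 that is not reported here, and of the other lists up to 6 called genes with the smallest p. The 2 genes with the profile most like each called receptor, and genes that overlap a receptor, are named too. The alternatives tried were DESeq2 1.42.0, limma-voom (limma 3.58.1), other scalings and filters, protein-coding genes alone, no fold limit, a replicate block, another gene length, another added count, and each library left out in turn.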

Additional observations from a re-analysis of the deposited data

How the results depend on the processing

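The log2 fold changes of the 9 receptors kept their direction and their side of an adjusted p of 0.05 under all 126 combinations of receptor and alternative. The count of receptors called lower was 3 to 4 over the libraries left out in turn, losing Ccr4 without the second control library and Ccr2 without the third, and it was 3 with library totals, losing Ccr4. With library totals the median log2 fold change of all genes was 0.064, and the share of calls that were lower moved by less than 10 percentage points. Over all genes tested, leaving out each library gave 923 to 1129 lower and 502 to 565 higher calls, protein-coding genes alone gave 603 lower calls, and without the fold limit 3695 genes were lower and 3910 higher. With protein-coding genes alone, 12441 genes were tested in place of 15938. Lower calls were 603 in place of 1064, and higher calls 392 in place of 536. The lower calls thus shrank by a larger part than the genes tested, and the reason was not tested. Without the fold limit the call was wider by construction. Without the fold limit, 4 other chemokine receptors, 2 other migration receptors, 8 desensitisation genes, 23 signalling genes and 13 transcription factors were called in place of 0, 1, 3, 2 and 3.

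With the coding length in place of the deposited gene length, an alternative chosen after seeing the data, 5 of 9 receptors kept their rank in control and 4 in ALX-5407 libraries. The coding length from a protein table was not run. The difference in the log2 ratio of Ccr7 to Cxcr4 ranged from -0.01719 to 0.1501 over the libraries left out, and the first of these values reversed the sign, without the third ALX-5407 library. The cause was not tested. Same-numbered libraries did not visibly deviate together (correlations of -0.00968, -0.00168 and 0.0562). These values cannot tell whether same-numbered cultures shared an animal or a batch, since a weak shared effect could go unseen, and the labels do not say. With the replicate block, 4 receptors were called lower and 0 higher, with 1045 genes lower and 530 higher over all. Depth limits Ccr6 in ALX-5407 libraries, which held 8 to 19 reads of it, and the ligands Ccl20 and Ccl22.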
